A study of Drosophila melanogaster with 9 samples.

Results

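Of the genes measured in fly RNA from 3 genotypes, 31 encode proteins of the muscle sarcomere or the calcium pump that lets it relax, and they are described here. They were taken from a list of gene symbols, and the counts of all RefSeq transcripts of each symbol were summed. All 31 were found among 15413 entries in the table, Unc-89 under its synonym Obsc, and all 31 passed the filter on low counts that left 11430 genes for testing. One of them, the troponin C gene TpnC73F, was lower in the line overexpressing Dube3a in glia than in the control with no driver. The others did not pass the main test, edgeR's, in any comparison of genotypes. A few of them, led by genes known from flight muscle, differed far more between single libraries, fln by 108.5-fold.

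The study sequenced 9 libraries of adult Drosophila melanogaster, 3 per genotype. The glial line carried repo-GAL4, a driver active in glia, and the UAS-Dube3a transgene (Das45). The neuronal line carried elav-GAL4 (C155), a driver active in neurons, and the same transgene. The control, labelled w_Das45, carried UAS-Dube3a (Das45) with no driver. Dube3a, listed as Ube3a, is the fly's version of the ubiquitin ligase UBE3A, and the design asks which transcripts change when it is raised in glia or in neurons. The transgene was thus present in every library, and no library carried a driver without it. Flies were kept at 25 degrees, and their age is given as about 3 days in one place and 3 to 5 days in another. RNA came from pools of 15 to 25 heads per genotype according to the design text, and from dissected brain according to the sample labels. The labels do not say whether replicates were separate crosses, so each p measures only how far these libraries spread, which may be technical.

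In a sarcomere, thick filaments of myosin pull on thin filaments of actin that are anchored in the Z-discs. Calcium released in the muscle fibre binds troponin C, which with troponin I, troponin T and tropomyosin frees the actin for myosin, and SERCA pumps the calcium back into the sarcoplasmic reticulum. Flies build different muscles from different gene copies and splice forms: the indirect flight muscle of the thorax uses the actin Act88F, the troponin C TpnC4 and flightin (fln), while the head holds the muscles of the mouthparts and antennae, which are of the tubular kind. Tropomodulin, SERCA, alpha-actinin and some tropomyosin forms also work outside muscle.

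Total counts were 38070711 to 60322417 in the glial libraries, 36100125 to 41080491 in the neuronal libraries and 35550949 to 38554008 in the control libraries. Ube3a, the transgene's gene, averaged 209 ± 17.5 CPM (counts scaled to a depth of 1e+06) in glial libraries, 70.4 ± 7.95 CPM in neuronal libraries and 34.6 ± 4.58 CPM in control libraries (SD, n = 3 each), and all 3 comparisons of it passed with edgeR. The 7 neuronal markers summed to 1708 to 2671 CPM over all libraries, but 8 photoreceptor genes summed to 39590 to 57770 CPM, so eye transcripts were present in material labelled as brain. Transcripts of 26 digestive enzymes of the gut summed to 3194 to 74060 CPM in the glial libraries, 12940 to 78200 CPM in the neuronal libraries and 3183 to 74420 CPM in the control libraries. The 31 sarcomere genes held 2.61% ± 0.51 of all counts in the glial line, 3.11% ± 0.48 in the neuronal line and 2.56% ± 0.14 in the control (SD, n = 3 each), and the 3 ranges overlapped. In bulk RNA, fewer muscle cells and less RNA per muscle cell cannot be told apart.

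Levels of different genes were compared as CPM per kb of annotated exon. The actin gene Act57B, known from larval and adult body muscle, stood highest, with a mean of 2330 CPM per kb in the glial line, 2181 in the neuronal line and 1524 in the control. It was followed over the 9 libraries by the myosin regulatory light chain gene Mlc2 (1375 CPM per kb), SERCA (997) and the single muscle myosin heavy chain gene Mhc (462). The lowest 3 members in every genotype were TpnC41C, a troponin C gene known from jump and flight muscle, TpnC4 and the Z-disc gene Zasp67. Their order changed with the genotype: TpnC41C had 1.61 CPM per kb in the glial line, 1.97 in the neuronal line and 2.33 in the control. TpnC4 had 3.78, 0.729 and 1.90 CPM per kb in the glial, neuronal and control lines, and Zasp67 had 3.38, 1.15 and 2.004 in the glial, neuronal and control lines. The giant titin-like genes sls and bt also stood low on this scale, sls at 6.95 and bt at 13.3 CPM per kb. Among the 5 troponin C genes, TpnC25D made up 86.5% ± 1.67 of the family's CPM per kb in the glial line, 84.3% ± 1.06 in the neuronal line and 79.1% ± 2.94 in the control (SD, n = 3 each).

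**Figure D1:**
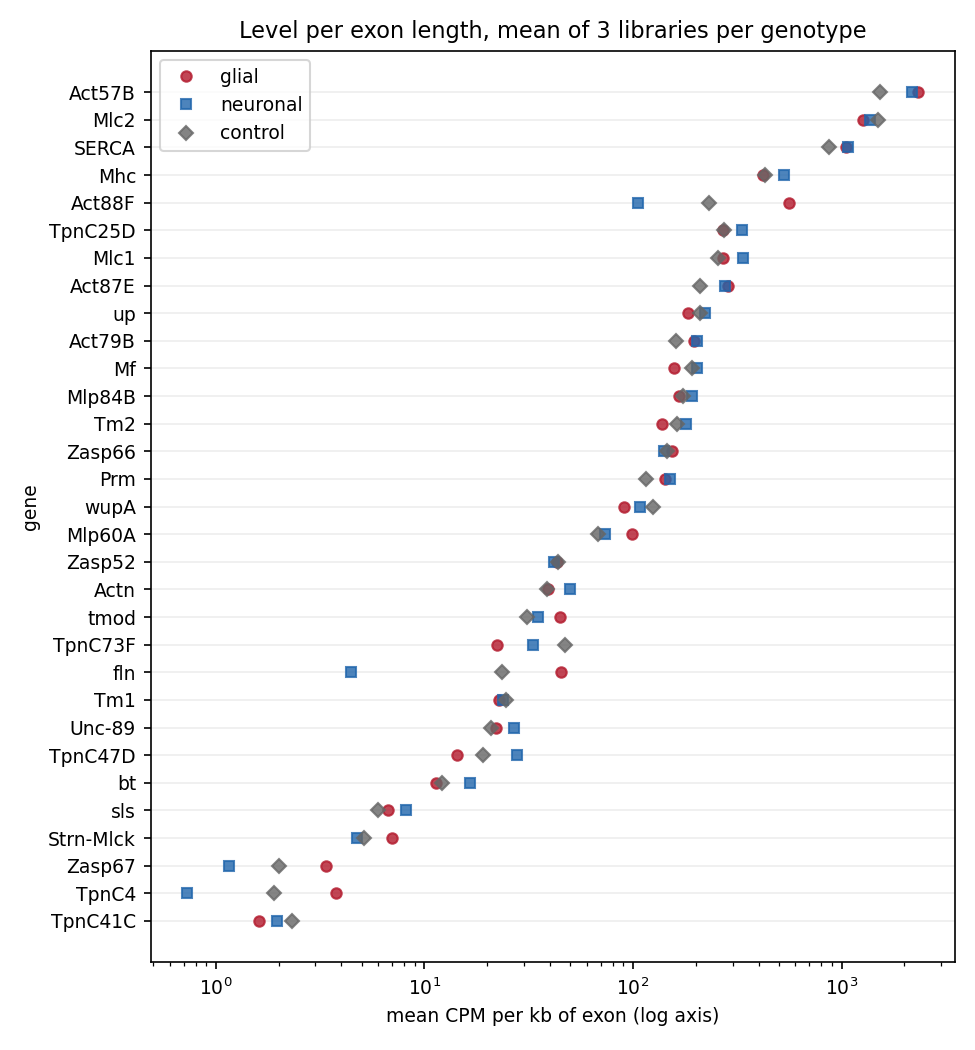
Mean level of each sarcomere gene in CPM per kb of exon (horizontal log axis) in the glial (circles), neuronal (squares) and control (diamonds) lines, 3 libraries each, ordered by the mean of all 9. Act57B, Mlc2, SERCA and Mhc lie on top, and Zasp67, TpnC4 and TpnC41C at the bottom.

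In the glial line set against the control, 1 of the 31 genes fell and 0 rose with edgeR's quasi-likelihood test at a Benjamini-Hochberg adjusted p under 0.05. That threshold was passed by 4.42% of all genes tested, 2.54% higher and 1.88% lower. At an unadjusted p under 0.05 there were 2 of the 31, TpnC73F and tmod, beside 19.9% of all genes. DESeq2 called the same 2, and limma-voom called TpnC73F. The median log2 fold change of the 31 was 0.07, beside 0.01 for all genes tested, and it turned to -0.05 when libraries were scaled by their totals, which put the median of all genes at -0.10, to -0.06 without glial 2, to -0.07 without glial 3 and to -0.12 without glial 3 and control 2 together. The values ran from -1.07 to 1.27, and 22 of the 31 lay within 0.5 of 0.

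TpnC73F encodes a troponin C of larval and adult body muscle. It had 21.2, 26.4 and 23.3 CPM in the glial libraries, 44.7, 28.9 and 31.9 CPM in the neuronal libraries, and 51.7, 48.0 and 49.8 CPM in the control libraries. No glial library reached the lowest neuronal one, and no neuronal library reached the lowest control one. In the glial line the gene fell 2.11-fold (log2 fold change -1.07 ± 0.17 SE, edgeR adjusted p = 0.0091). The neuronal line gave -0.50 ± 0.17 (adjusted p = 0.24), and the glial line against the neuronal line -0.57 ± 0.17 (adjusted p = 0.1), so neither of these passed. Both of its annotated transcripts passed in the glial line when tested singly, at -1.14 ± 0.17 and -1.06 ± 0.18. In that test 3.58% of all 26410 transcripts passed, and 3 of the 234 tested transcripts of the sarcomere genes. Each of the 2 TpnC73F transcripts held 47.4% to 52.6% of the gene's counts in every library. They may be a split of shared reads, so they do not count as 2 separate results. The call held without any 1 of the 9 libraries (adjusted p = 0.0044 to 0.046). It was lost without glial 3 and control 2 together, the libraries richest in flight muscle transcripts (-1.11, adjusted p = 0.094). That fit was added after the data were seen and had fewer libraries. In it the calls over all genes fell from 505 to 101, while the TpnC73F fold change was no smaller.

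The 4 other troponin C genes did not pass. TpnC25D, the most abundant, had 297, 366 and 354 CPM in the glial libraries, 563, 344 and 348 CPM in the neuronal libraries and 311, 281 and 432 CPM in the control libraries, and the groups overlapped. TpnC47D had 9.19 to 14.0 CPM in the glial line, 13.9 to 36.5 CPM in the neuronal line and 13.4 to 18.5 CPM in the control, with neuronal 1 far above the rest. TpnC41C had 3.43, 3.11 and 2.52 CPM in the glial libraries, 6.26, 2.17 and 2.69 CPM in the neuronal libraries and 4.71, 3.02 and 5.42 CPM in the control libraries, again highest in neuronal 1. The share of TpnC73F in the family's CPM per kb was 7.14% ± 0.45 in the glial line, 8.46% ± 0.71 in the neuronal line and 14.0% ± 2.45 in the control (SD, n = 3 each). Some markers of other cells moved in the same comparison with edgeR, where 2.54% of all genes rose and 1.88% fell. Of 7 hemocyte markers 3 rose and 0 fell, and of 8 glial markers 1 rose and 3 fell. Of 7 fat body markers 1 rose, Lsp2, and 0 fell. Among 24 tested gut enzymes, 7 neuronal markers and 8 photoreceptor genes, 0 passed. The summed hemocyte markers were 512 to 679 CPM in the glial line, 308 to 413 CPM in the neuronal line and 343 to 403 CPM in the control, with none at 0 in any library. The summed glial markers were 1772 to 2683 CPM in the glial line, 2663 to 3350 CPM in the neuronal line and 2890 to 3488 CPM in the control, again with none at 0. Their part in the TpnC73F result was not tested.

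Tropomodulin, the gene tmod, caps the slow-growing end of thin filaments in muscle and of actin in other cells. It had 462, 363 and 295.5 CPM in the glial libraries, 315, 257 and 306 CPM in the neuronal libraries and 253, 248 and 271 CPM in the control libraries. All 3 glial libraries lay above all 3 control libraries, while the neuronal values overlapped both. The log2 fold change in the glial line was 0.54 ± 0.17 (edgeR adjusted p = 0.12), in the neuronal line 0.19 ± 0.17 (adjusted p = 0.7) and between the lines 0.35 ± 0.17 (adjusted p = 0.33). DESeq2 gave 0.53 with an adjusted p of 0.035 in the glial line. All 17 tmod transcripts had a positive log2 fold change there, from 0.12 to 0.80. The highest, NM_057684, passed when transcripts were tested singly (0.80 ± 0.12, edgeR adjusted p = 0.0067), beside 3.58% of all transcripts. Reads shared by transcripts of one gene appear to be spread over them in this table, so a single transcript's count is less certain than the gene's.

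**Figure D2:**
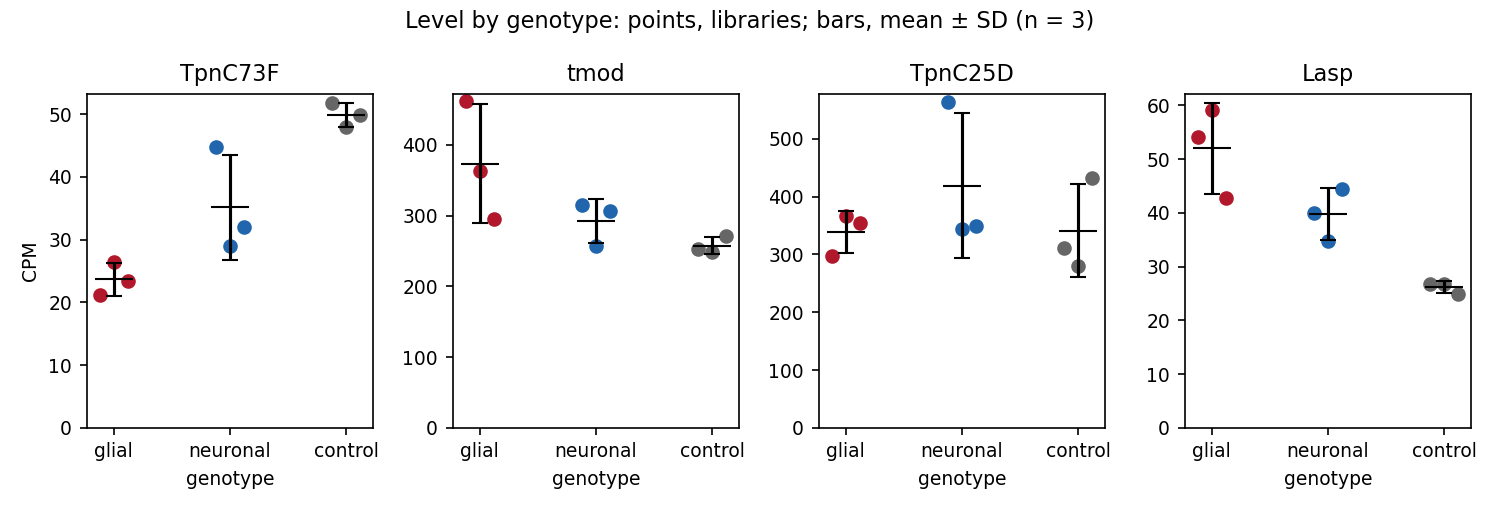
CPM (vertical axis, from 0) of TpnC73F, tmod, TpnC25D and the thin filament gene Lasp by genotype. Points are libraries and bars the mean ± SD of 3; TpnC73F steps up in the order glial, neuronal, control without overlap, and tmod and Lasp are higher in all 3 glial libraries than in all 3 control libraries.

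Separation of groups by itself was common in these data. In the glial line against the control, 2 of the 31 had no overlap between groups and a log2 fold change of at least 0.5 in size, tmod higher and TpnC73F lower, as had 13.6% of all genes tested (7.05% higher and 6.54% lower). In the neuronal line against the control there were 2, TpnC73F and Act88F, both lower, beside 9.39% of all genes (4.61% higher and 4.78% lower). The Act88F value ran from -1.41 to -0.33 when 1 library was left out, so its size depended on single libraries. In the glial against the neuronal line there was 1, TpnC73F, lower, beside 12.4% of all genes (6.73% higher and 5.71% lower). The first 2 comparisons share the control libraries.

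In the neuronal line set against the control, 0 of the 31 genes passed with edgeR, DESeq2 or limma-voom, where edgeR called 0.709% of all genes, 0.306% higher and 0.402% lower. At an unadjusted p under 0.05 there were 3, TpnC73F, the alpha-actinin gene Actn and sls, beside 13.3% of all genes. The median of the 31 was 0.14, beside 0.00 for all genes, and it was -0.025 without neuronal 1, 0.275 without neuronal 3 and 0.029 without neuronal 1 and control 3 together. The gene sls, which encodes elastic titin-like proteins, had 525, 491 and 430 CPM in the neuronal libraries against 337, 301 and 420 CPM in the control libraries. Unc-89, the obscurin gene, had 325, 442 and 307 CPM in the neuronal libraries against 259, 297 and 274 CPM in the control libraries. For both, the lowest neuronal library lay slightly above the highest control library, at log2 fold changes under 0.5 (edgeR adjusted p = 0.37 for sls and 0.42 for Unc-89). How many of all genes separate at such sizes was not counted. The gene bt, for projectin, had 355, 414 and 184 CPM in the glial libraries, 482, 527 and 380 CPM in the neuronal libraries and 333, 294 and 390 CPM in the control libraries, with glial 3 the lowest of all. In the glial line against the neuronal line, 0 of the 31 passed with edgeR and with limma-voom and 1 with DESeq2, TpnC73F, where edgeR called 3.69% of all genes, 2.02% higher and 1.67% lower. There were 3 at an unadjusted p under 0.05, Act88F, TpnC47D and TpnC73F, beside 18.2% of all genes, and the median of the 31 was -0.12, beside 0.01 for all genes. That median was 0.022 without neuronal 1, 0.007 without neuronal 1 and control 3 together, and -0.319 with library totals, which put all genes at -0.147.

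**Figure D3:**
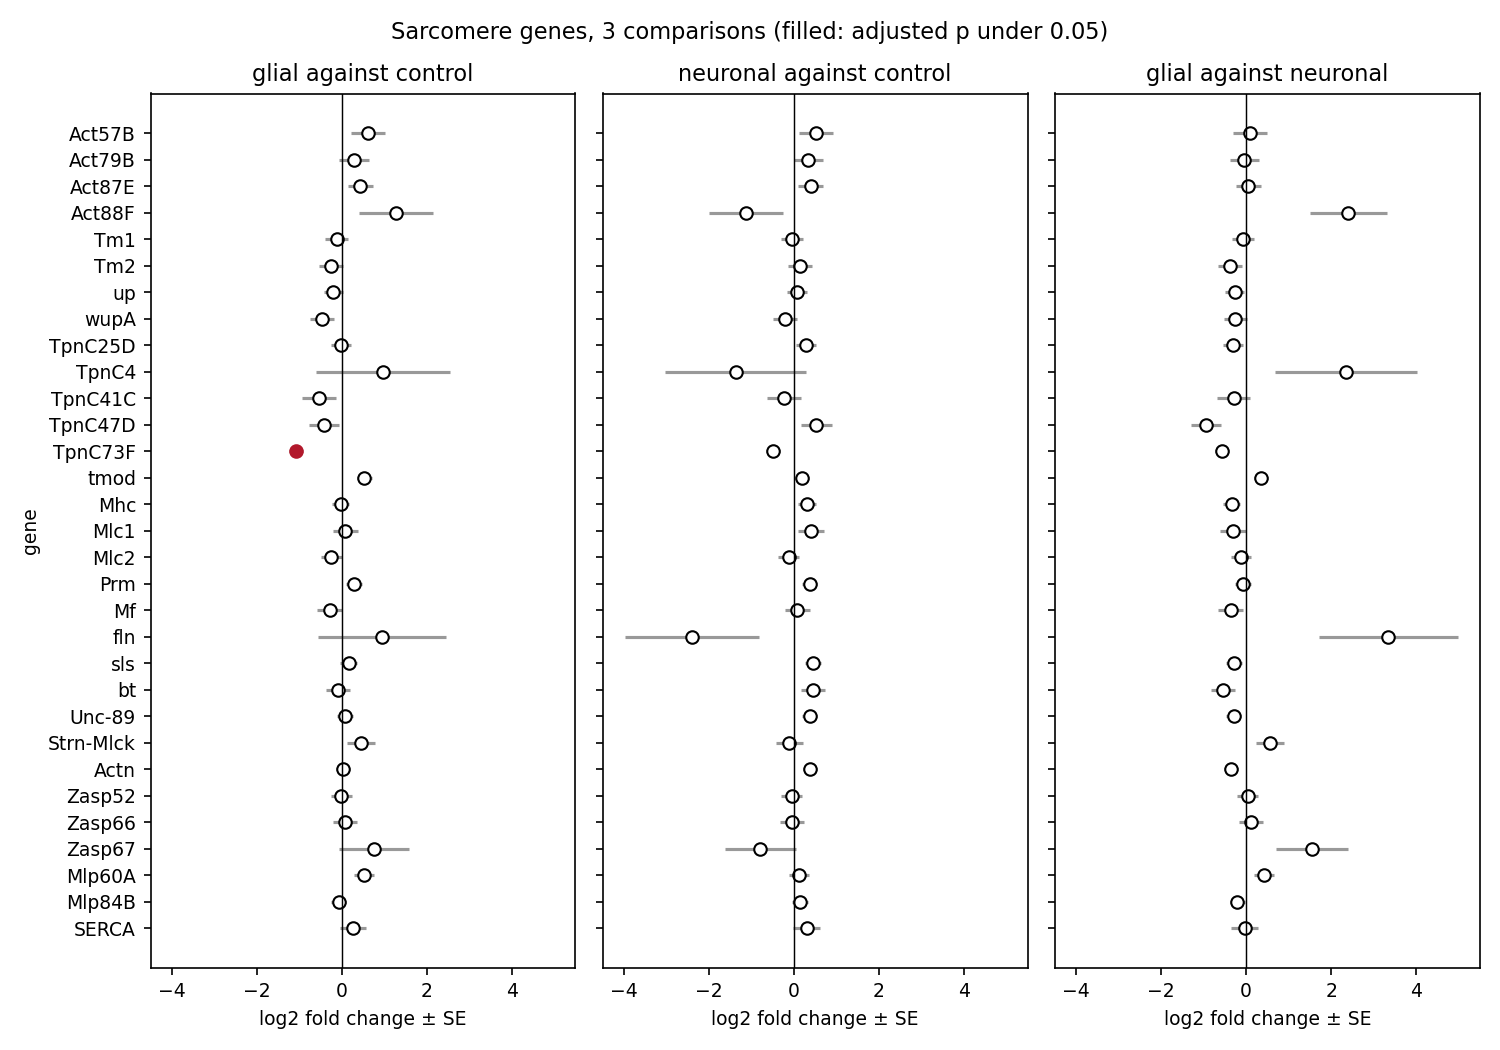
Log2 fold change ± SE (horizontal axis) of the 31 sarcomere genes in the 3 comparisons, 3 libraries per genotype, with genes in the order of their roles. TpnC73F in the glial line against the control, at -1.07, is the one filled point (edgeR adjusted p under 0.05), and the widest error bars belong to fln and TpnC4.

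None of the 4 muscle actins passed in any comparison, and Act88F is described with the flight muscle genes. Act57B had 1923, 5243 and 4885 CPM in the glial libraries, 3518, 4831 and 2933 CPM in the neuronal libraries and 3277, 2817 and 1786 CPM in the control libraries, and the groups overlapped. Its log2 fold change in the glial line was 0.61 ± 0.40 (edgeR adjusted p = 0.44). Act79B, the actin of tubular leg and thoracic muscle, had 173, 481 and 299 CPM in the glial libraries, 288, 426 and 271 CPM in the neuronal libraries, and 312, 257 and 211 CPM in the control libraries. Act87E, a further muscle actin, had 323, 747 and 632 CPM in the glial libraries, 537, 598 and 512 CPM in the neuronal libraries, and 516, 427 and 309 CPM in the control libraries. For Act57B, Act79B and Act87E, glial 2 was the highest of the 9 libraries. The actin genes are nearly identical in coding sequence, so reads may be shared between them and their levels are uncertain to that extent.

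The tropomyosin genes Tm1 and Tm2, the troponin T gene up and the troponin I gene wupA had log2 fold changes between -0.46 and 0.14 against the control in either driver line. Tm2 had 397, 306 and 370 CPM in the glial libraries, 638, 380 and 388 CPM in the neuronal libraries, and 346, 327 and 601 CPM in the control libraries. The gene wupA had 177, 149 and 210 CPM in the glial libraries, 299, 173 and 168 CPM in the neuronal libraries, and 215, 193 and 330 CPM in the control libraries. For both, neuronal 1 and control 3 stood above the other 7 libraries.

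Among thick filament genes, Mhc had 3295, 4081 and 4091 CPM in the glial libraries, 5157, 5373 and 3935 CPM in the neuronal libraries and 3697, 3753 and 4238 CPM in the control libraries. Mlc2 had 2237, 2836 and 3569 CPM in the glial libraries, 3717, 3398 and 2280 CPM in the neuronal libraries and 3307, 3537 and 3398 CPM in the control libraries. Prm, which encodes the paramyosin of the filament core and the shorter miniparamyosin, had 598, 837 and 859 CPM in the glial libraries, 900.5, 849 and 655.5 CPM in the neuronal libraries and 605.5, 592 and 667 CPM in the control libraries. The groups overlapped for all of them. Myofilin, the gene Mf, had 576, 1078 and 844 CPM in the glial libraries, 1019, 1447 and 755 CPM in the neuronal libraries and 1135, 1043 and 867 CPM in the control libraries. Mhc had the smallest standard deviation of log2 CPM within genotypes of the 31, at 0.19.

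Of the Z-disc genes, Mlp84B, a muscle LIM protein gene, had 451, 616 and 489 CPM in the glial libraries, 664, 661.5 and 474 CPM in the neuronal libraries and 547, 505 and 582 CPM in the control libraries. Its relative Mlp60A had 192, 336 and 314 CPM in the glial libraries, 262, 207 and 159 CPM in the neuronal libraries and 189.6, 206 and 186 CPM in the control libraries, a log2 fold change of 0.53 ± 0.24 in the glial line (edgeR adjusted p = 0.25). Zasp52 and Zasp66, adaptors that bind alpha-actinin, gave values between -0.05 and 0.08 against the control in both driver lines. SERCA had 5165, 11900 and 8895 CPM in the glial libraries, 7554, 10930 and 8073 CPM in the neuronal libraries and 7754, 7208 and 6643 CPM in the control libraries, a log2 fold change in the glial line of 0.27 ± 0.31 (adjusted p = 0.69). The lowest and the highest SERCA library were both glial. Exons of SERCA, Actn and fln overlap those of other genes over 16.0%, 20.7% and 61.6% of their length, where reads cannot be assigned, since the strand handling is not known.

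The genes fln, Act88F, TpnC4 and Zasp67 were higher in 2 libraries of different genotypes, glial 3 and control 2, than in the other 7. In control 2 the margin was narrower for Act88F (686 CPM, beside 323 in glial 2) and Zasp67 (12.6 CPM, beside 5.29 in glial 1). Flightin, the gene fln, encodes a myosin-binding protein that stiffens flight muscle thick filaments. It had 1.59, 2.84 and 172 CPM in the glial libraries, 4.98, 8.85 and 3.46 CPM in the neuronal libraries and 6.93, 72.3 and 12.1 CPM in the control libraries. Glial 3 and control 2 thus stood far above the other 7, and glial 1 was the lowest. The group values moved with these 2 libraries: fln gave 0.95 ± 1.5 in the glial line (edgeR adjusted p = 0.78), which became -3.80 without glial 3, and -2.40 ± 1.58 in the neuronal line (adjusted p = 0.57).

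Act88F, the flight muscle actin, had 154.8, 323 and 2189 CPM in the glial libraries, 147, 190 and 168 CPM in the neuronal libraries and 211, 686 and 206 CPM in the control libraries. TpnC4, the flight muscle troponin C, had 12, 0 and 292 reads in the glial libraries, 18, 38 and 19 in the neuronal libraries and 7, 134 and 29 in the control libraries, and the count of 0 in glial 2 allows up to 0.0818 CPM. Zasp67 had 5.29, 2.15 and 25.5 CPM in the glial libraries, 3.47, 4.71 and 3.06 CPM in the neuronal libraries and 3.20, 12.6 and 3.76 CPM in the control libraries. In all 3 genes the highest library was glial 3 and the next control 2. Act88F gave 1.27 ± 0.87 in the glial line (adjusted p = 0.47), -1.13 ± 0.87 in the neuronal line (0.63) and 2.40 ± 0.90 between the lines (0.2), and the first became -0.63 without glial 3. All 3 neuronal libraries lay below all 3 control libraries for Act88F, but the highest neuronal (190 CPM) was close to the lowest control (206 CPM). The neuronal value ran from -1.41 to -0.33 without 1 library.

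Strn-Mlck, which encodes a kinase related to titin and myosin light chain kinase, shared this order of libraries through 1 transcript. Of its 10 annotated transcripts, NM_166130 had 1.56, 1.53 and 181 CPM in the glial libraries, 2.12, 10.2 and 1.998 CPM in the neuronal libraries and 0.98, 77.7 and 8.76 CPM in the control libraries. The 9 others summed to 144.6, 183 and 174 CPM in the glial libraries, 134, 170.5 and 148 CPM in the neuronal libraries and 129, 141 and 144.6 CPM in the control libraries. The gene as a whole was highest in glial 3 and control 2, and the sum of its other transcripts was highest in glial 2. The tropomyosin gene Tm1 showed a similar split: 1 of its 17 transcripts, NM_169637, had 17.7, 16.3 and 91.0 CPM in the glial libraries, 29.0, 18.7 and 15.0 CPM in the neuronal libraries and 16.3, 51.1 and 26.3 CPM in the control libraries. The 16 others together were highest in neuronal 1 (304 CPM) and control 3 (265 CPM). Some transcripts of other members also had their highest shares of the gene in glial 3 and control 2. Prm NM_001259752 held 8.19% and 6.43% of its gene in these libraries and at most 3.84% elsewhere. Zasp52 NM_001274081 held 5.65% and 3.34% there and at most 2.80% elsewhere. All transcripts named here were picked after their values were seen.

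**Figure D4:**
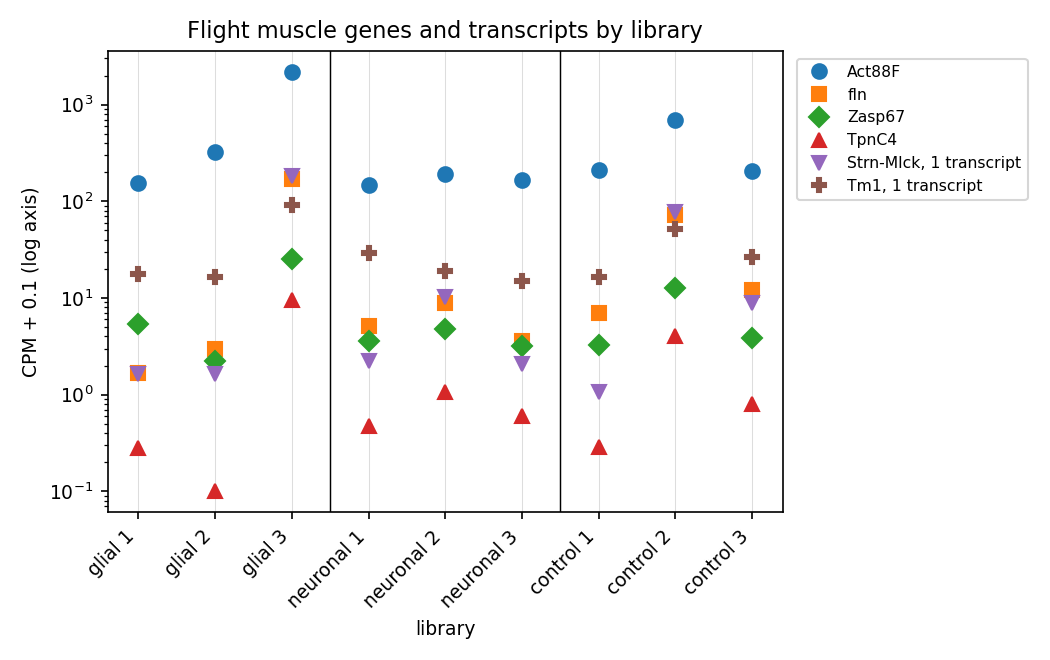
CPM plus 0.1 (vertical log axis) of Act88F, fln, Zasp67 and TpnC4 and of 1 transcript each of Strn-Mlck and Tm1 in each of the 9 libraries. All 6 are highest in glial 3 and next highest in control 2, where fln reaches 172 and 72.3 CPM.

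Both of these libraries were also rich in gut transcripts, as were some others. The 26 gut enzymes summed to 56180, 3194 and 74060 CPM in the glial libraries, 12940, 78200 and 47830 CPM in the neuronal libraries and 13520, 74420 and 3183 CPM in the control libraries. Neuronal 2 held the most gut transcripts and 8.85 CPM of fln, and glial 1 held 56180 CPM and the lowest fln of all. With the gut level as a term in the fit, fln gave -0.64 in the glial line against the control, and 0.95 ± 1.5 without that term. What set the flight muscle genes high in glial 3 and control 2 was not tested. The antisense gene asRNA:CR45161, whose exons overlap those of fln, had 0.457, 0.409 and 22.7 CPM in the glial libraries, 2.33, 1.77 and 1.78 CPM in the neuronal libraries and 2.75, 9.23 and 2.99 CPM in the control libraries, and its reads may be those of fln.

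Further orders of libraries were seen among the members. For 7 of the 31, Tm1, Tm2, up, wupA, TpnC25D, TpnC41C and TpnC47D, neuronal 1 and control 3 were the 2 highest libraries, all of them thin filament genes. The troponin T gene up had 457, 436 and 500 CPM in the glial libraries, 745, 479 and 458 CPM in the neuronal libraries and 457, 452 and 685 CPM in the control libraries. The essential light chain gene Mlc1 was also highest in neuronal 1, with 745 CPM there and 317 to 458 CPM in the other 8. Glial 1 was the lowest library for 12 members, among them SERCA, Mhc, Zasp52 and Zasp66, and it was the deepest library. For tmod the same library was the highest.

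**Figure D5:**
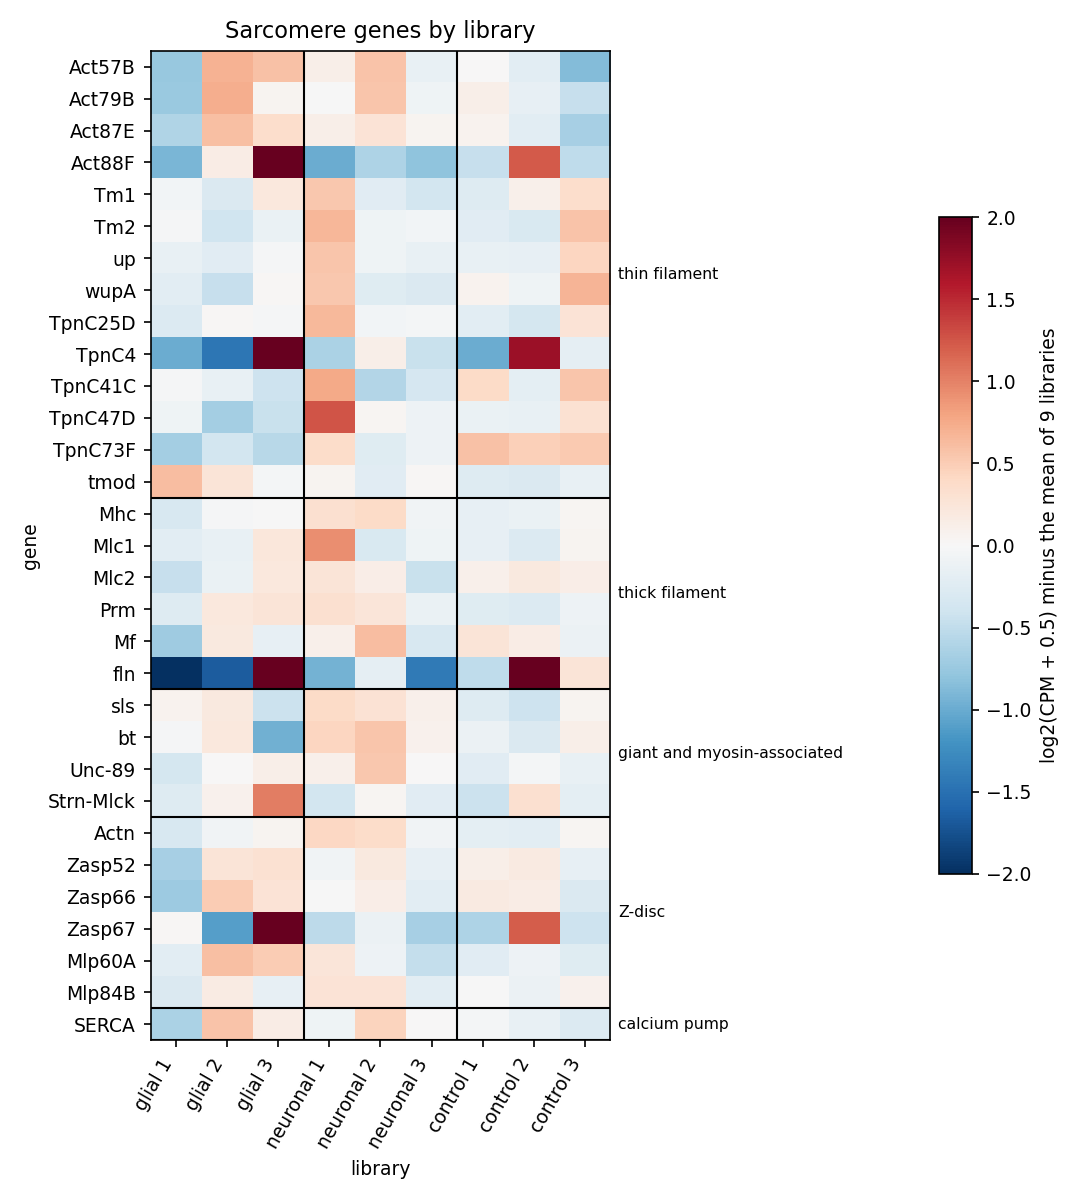
Log2(CPM + 0.5) of each gene minus its mean over the 9 libraries (colour, limited to -2 and 2), with genes grouped by role and libraries by genotype. Act88F, TpnC4, fln and Zasp67 are red in glial 3 and control 2, the troponin and tropomyosin genes other than TpnC4 are red in neuronal 1 and control 3, and TpnC73F is blue in all 3 glial libraries.

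Spread within genotypes was larger for the sarcomere genes than for the typical gene. The standard deviation of log2 CPM within genotypes had a median of 0.39 over the 31 and 0.26 over all 11430 genes, and 23 of the 31 lay above that median of all genes. It was 2.58 for TpnC4, 2.38 for fln, 1.28 for Act88F and 1.22 for Zasp67. For 27 of the 31, the highest of the 9 libraries was 1.47 to 3.97 times the lowest. TpnC73F and tmod had 0.21 each.

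Other genes that build or serve muscle were examined from lists. Of 12 genes of sarcomere assembly and chaperoning, 1 rose and 0 fell in the glial line, beside 2.54% and 1.88% of all genes. It was Lasp, an actin-binding protein gene that sets thin filament length in fly muscle, with 54.0, 59.2 and 42.7 CPM in the glial libraries, 40.03, 34.8 and 44.45 CPM in the neuronal libraries and 26.8, 26.8 and 24.9 CPM in the control libraries. It rose 1.99-fold in the glial line (log2 fold change 0.99 ± 0.14, edgeR adjusted p = 0.0062), and every glial and every neuronal library lay above every control library. The neuronal value was 0.61 ± 0.14 (adjusted p = 0.11) and the glial against the neuronal line 0.39 ± 0.14 (adjusted p = 0.19). The glial call was lost with scaling by library totals (0.91, adjusted p = 0.062) and without neuronal 1 and control 3 together (0.93, 0.061).

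Of 16 genes of muscle attachment and the costamere, 1 fell and 0 rose in the glial line, beside 1.88% and 2.54% of all genes. Scgalpha, a sarcoglycan gene of the dystrophin complex, had 9.18, 8.07 and 9.44 CPM in the glial libraries, 17.2, 15.3 and 13.1 CPM in the neuronal libraries and 17.7, 13.9 and 17.4 CPM in the control libraries. It fell in the glial line against the control (-0.88 ± 0.16, edgeR adjusted p = 0.017) and against the neuronal line (-0.78 ± 0.16, adjusted p = 0.031). The first call was lost in 6 of 19 alternatives, among them without glial 2 (adjusted p = 0.0501), control 1 (0.081) or control 3 (0.0544). The second was lost in 11 of 19, with adjusted p up to 0.13, among them without any 1 glial library, neuronal 1, neuronal 2 or control 1 (0.058 to 0.11).

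Of 7 non-muscle counterparts, such as cytoplasmic actin and myosin, 1 rose and 0 fell in the glial line. Of all genes tested, 2.54% rose and 1.88% fell. The cytoplasmic actin gene Act42A had 81.6, 86.2 and 114.7 CPM in the glial libraries, 61.6, 49.6 and 58.0 CPM in the neuronal libraries and 62.9, 60.8 and 56.5 CPM in the control libraries. It rose against the control (0.65 ± 0.15, edgeR adjusted p = 0.045) and against the neuronal line (0.74 ± 0.15, adjusted p = 0.031). The first call was lost in 15 of 19 alternatives, among them without glial 2, glial 3, neuronal 1, neuronal 3 or any 1 control library (adjusted p = 0.064 to 0.13). The second was lost in 12, among them without glial 2, glial 3, any 1 neuronal library, control 1 or control 2 (0.0539 to 0.1). Act42A reads may be shared with the other actin genes.

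The remaining muscle lists had 0 members past the threshold with edgeR or limma-voom in any comparison. Their counts below stand beside 19.9% of all genes at an unadjusted p under 0.05 and 1113 of 11430 genes called by DESeq2 in the glial line against the control. Among 10 genes of excitation-contraction coupling, 1 was higher and 2 lower at an unadjusted p under 0.05 in the glial line, and DESeq2 called 0 and 2. Calx, a sodium-calcium exchanger gene and the most abundant of them, averaged 264 ± 27.4 CPM in the glial line, 269 ± 54.8 CPM in the neuronal line and 234 ± 27.2 CPM in the control. Among 10 tested genes of muscle transcription and RNA regulation, 1 was higher and 2 lower unadjusted in the glial line, and DESeq2 called 0 and 1. Mef2, a transcription factor of muscle that some neurons also use, averaged 101.1 ± 21.7 CPM in the glial line, 119 ± 20.3 CPM in the neuronal line and 107 ± 14.3 CPM in the control. Among 5 tested genes of the muscle glutamate receptor, 0 were higher and 1 lower unadjusted in the glial line, DESeq2 called 0 and 1, and the median log2 fold change was -0.61. GluRIIA, a receptor subunit gene named here after its values were seen, had 2.44, 1.96 and 2.004 CPM in the glial libraries, 4.49, 3.25 and 3.89 CPM in the neuronal libraries and 3.965, 3.25 and 5.15 CPM in the control libraries. All 3 glial libraries lay below all others, at -0.95 ± 0.23 against the control (edgeR adjusted p = 0.0526, and 0.0064 to 0.15 over the alternatives). The subunit genes GluRIIC, GluRIID and GluRIIE also had negative values that did not pass, from -0.66 to -0.23, and Neto had 0.15. Neto, their auxiliary subunit gene, averaged 11.0 ± 0.63 CPM in the glial line, 10.45 ± 0.62 CPM in the neuronal line and 9.89 ± 1.09 CPM in the control (SD, n = 3 each). In the neuronal line against the control, DESeq2 called 0 in these 3 lists, beside 470 of all genes. There, 2 of the coupling genes and 0 of the others had an unadjusted p under 0.05, beside 13.3% of all genes. In the glial against the neuronal line each list had 1 gene lower unadjusted, beside 18.2% of all genes in either direction. DESeq2 called 1 coupling gene and 1 receptor gene lower there, beside 1013 of all genes in either direction.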

How the data were processed

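The authors deposited 1 table of raw counts, whole numbers per RefSeq transcript with no scaling, for 31838 transcripts in 9 columns. STAR and DESeq2 are named in the submitters' processing notes without a role. Not given in the sources used here were the counting program, the genome build and the strand handling. A gene was found for 31673 transcripts in RefSeq's annotation of Release 6 plus ISO1 MT, giving 15248 genes, and 165 were kept as single entries. Unmatched entries held 0.297% to 0.685% of the counts per library. Gene counts are sums over transcripts. Symbols were matched exactly, and by synonym where no symbol matched (1 of 31). Exon lengths and overlaps come from Ensembl release 115, and no coordinates are printed because the authors' build is not named.

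The main test used edgeR 4.0.16 (R 4.3.3) with TMM scaling, filterByExpr (minimum count 10, minimum total 15), the quasi-likelihood test with genotype as the only term on all 9 libraries, and Benjamini-Hochberg adjustment over 11430 genes at 0.05. The standard error is the log2 fold change divided by the square root of F. CPM values use TMM library sizes. The limit for a count of 0 is 3 reads and covers counting error only. The steps were tested on simulated data. Alternatives were DESeq2 1.42.0, limma-voom (limma 3.58.1), other scalings, no filter, a replicate block, the gut level as a covariate, 6 libraries only, single transcripts, and leaving out libraries. The members and lists were chosen with earlier results of these data known. Per-library values are given for members past the threshold, the 8 highest by CPM, the flight, jump and tubular muscle genes and separated members; other members named with values were chosen after these were seen. Of each other list, up to 4 genes past the threshold are named, or else the most abundant. Sequences were not used here.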

Additional observations from a re-analysis of the deposited data

Results flagged for a closer look

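Scgalpha and Act42A, 2 genes outside the sarcomere list, passed the direct test of the glial against the neuronal line with edgeR, as did 3.69% of all genes. It is the test of whether their changes against the shared control differ. Scgalpha gave -0.78 (edgeR adjusted p = 0.031), with all 3 glial libraries below all 3 neuronal libraries. Act42A gave 0.74 (adjusted p = 0.031), with all 3 glial libraries above all 3 neuronal libraries. None of the 31 sarcomere genes passed that test with edgeR or limma-voom, while DESeq2 called TpnC73F (-0.57, adjusted p = 0.033), and 3 had an unadjusted p under 0.05 with edgeR.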

How the results depend on the processing

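The sarcomere genes called were 1 in the glial line against the control and 0 in the other 2 comparisons without any 1 library, where TpnC73F ran from -1.183 to -1.0003. They were 2, 0 and 1 with DESeq2 and with single transcripts. In the glial against the neuronal line, the 1 was TpnC73F with DESeq2 but tmod with single transcripts (NM_057684, 0.62 ± 0.12, edgeR adjusted p = 0.024). Of all transcripts tested singly, 3.58%, 0.572% and 3.22% passed in the 3 comparisons. The sarcomere genes called were 0 in each without glial 3 and control 2 together. That alternative was added after seeing the data, as was leaving out neuronal 1 and control 3. Over all genes, the 505, 81 and 422 calls of the 3 comparisons became 281, 44 and 243 with library totals, 1113, 470 and 1013 with DESeq2, and 281, 15 and 241 with a replicate block. Of the calls, 57.4% were higher for glial against control, 43.2% for neuronal against control and 54.7% for glial against neuronal, which became 44.8%, 61.4% and 39.1% with library totals. Within 6 libraries there were 274 and 227 in the comparisons that involve the glial line. Leaving out 1 library gave 181 to 447, 16 to 62 and 154 to 392, and moved a count by over 1.5 times for glial 3, neuronal 3 and any control library in the first, glial 2 and any neuronal or control library in the second, and glial 3, any neuronal library and control 1 in the third. Without glial 3 and control 2 there were 101, 17 and 127, and without neuronal 1 and control 3 there were 226, 6 and 135. Settings that leave out libraries also have fewer samples, and the cause was otherwise not tested.

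Of 551 reruns of 29 fold changes, 480 kept direction and side of the threshold, 55 lost a call, 5 gained one and 11 turned sign, all of values that had not passed. In the glial line against the control, fln was -1.29 with limma-voom, -0.22 with a replicate block, -0.64 with gut level as covariate, -2.13 without glial 3 and control 2 and -3.80 to 2.59 without 1 library. Against the neuronal line fln was -1.40 without both and -1.40 to 3.92 without 1 library. In the glial line Zasp67 was -0.18 with gut level as covariate and -0.81 to 1.62 without 1 library, Act88F -0.63 to 2.06 and SERCA -0.057 to 0.53. In the neuronal line the Ube3a call was lost in 8 of 19 alternatives (adjusted p up to 0.11). Same-numbered libraries correlated from -0.71 to 0.50 in their deviations, with 2 of 9 pairs above 0.1. Of the 9 libraries, 3 correlated best with their own number. Large swings between libraries, such as those in gut transcripts, enter these values. They therefore cannot tell whether a replicate number marks a shared cross or day. Depth limits TpnC4 and TpnC41C most.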
